A study of Mus musculus with 12 samples.

Results

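Pan-macrophage identity was followed through 9 genes in the mouse heart: the lineage transcription factor gene Spi1, the surface protein genes Adgre1, Cx3cr1, Itgam, Siglec1 and Ms4a7, the lysosome and granule genes Cd68 and Lyz2, and the actin-binding protein gene Aif1. They were picked by symbol from the 30199 genes of the deposited table, and all 9 were among the 18897 genes that passed the filter on low counts. The study sequenced heart RNA of C57BL/6J mice in 12 libraries, 3 in each of 4 groups. Control mice received neither agent, 1 group received PLX3397, 1 received sorafenib, and 1 received sorafenib together with PLX3397, and tissue was collected at 28 days of sorafenib. Sorafenib is a multikinase inhibitor given against liver and kidney cancer, and PLX3397 inhibits the CSF1R kinase and was used to clear macrophages. The labels give no dose, route, vehicle, sex or age, and do not tie libraries to animals, so the p-values measure only the spread between these samples.

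Macrophages of the heart sit between the muscle fibres, where they clear debris and support electrical conduction and the repair of the tissue. The growth factor receptor CSF1R keeps most of them alive, and the transcription factor PU.1, the product of Spi1, sets up and holds their gene programme. No member is exclusive to macrophages: monocytes share most of them, neutrophils share Itgam and Lyz2, and dendritic cells share Cx3cr1 and Itgam in part.

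The libraries held similar depth, from 61626404 to 64537365 estimated counts. Cardiomyocyte markers were high throughout, with a mean of 1408 FPKM (fragment counts scaled for gene length and library size) for Myh6, the main heavy chain of adult heart myosin. The libraries labelled PLX3397 lay close to the controls in the 9 members, although the labels name a macrophage clearance agent. The mean log2 difference of the 9 members from the control mean was -0.01, -0.29 and -0.29 in the PLX3397 libraries, -1.41, -1.20 and -0.36 in the sorafenib libraries, and -1.92, -1.54 and -1.45 with both agents. Controls ranged from -0.21 to 0.23 on this scale. The mean weighs each member equally, and Aif1, with 0, 14 and 12 counts with both agents, lowered it most in that group. Sorafenib replicate 3 thus stood apart from the other sorafenib libraries, and values without it stand beside the main comparisons. Because the members' own values singled it out, values without it show its weight and are no separate test of the members. In whole tissue, fewer macrophages and less RNA per macrophage cannot be told apart.

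The members covered a wide range of levels in control hearts. Lyz2 had 262 ± 49.99 FPKM (mean ± SD, n = 3), which was 89.6% of the summed FPKM of the 9 genes. Cd68 followed with 14.3 ± 2.82 FPKM, Adgre1 with 5.92 ± 1.49, Itgam with 3.57 ± 1.41, Spi1 with 2.71 ± 0.809 and Aif1 with 1.40 ± 0.279 FPKM. Siglec1, Ms4a7 and Cx3cr1 lay together at the bottom, with 0.821 ± 0.279, 0.819 ± 0.212 and 0.810 ± 0.0517 FPKM, and did not differ beyond their spread. The SDs of Adgre1 and Itgam, and those of Itgam and Spi1, also overlapped. Control replicate 1 had the highest level of 7 of the 9 members, with Aif1 and Cx3cr1 the exceptions.

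Promoters are shown for Itgam and Cd68, whose windows hold an ETS-type motif of the kind PU.1 can bind, and for Cx3cr1, whose window holds none of the letters searched. Each runs 5′ to 3′ along the gene for 250 bases up to the RefSeq start (RefSeq, GRCm38.p6), with GAGGAA or GGAAGT on either strand (TTCCTC and ACTTCC on the reverse) in capitals. The windows are chr7:128062390-128062639 on the plus strand for Itgam, chr11:69666171-69666420 on the minus strand for Cd68 and chr9:120068297-120068546 on the minus strand for Cx3cr1.
Itgam: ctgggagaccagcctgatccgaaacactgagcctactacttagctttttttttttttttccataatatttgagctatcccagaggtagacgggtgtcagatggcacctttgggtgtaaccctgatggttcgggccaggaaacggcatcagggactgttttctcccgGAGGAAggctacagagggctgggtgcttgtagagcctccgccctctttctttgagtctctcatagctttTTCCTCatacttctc
Cd68: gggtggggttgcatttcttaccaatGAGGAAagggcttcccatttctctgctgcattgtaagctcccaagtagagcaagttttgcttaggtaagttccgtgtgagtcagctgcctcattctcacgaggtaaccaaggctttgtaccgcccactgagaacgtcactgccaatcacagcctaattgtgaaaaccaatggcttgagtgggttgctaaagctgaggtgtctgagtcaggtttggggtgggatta
Cx3cr1: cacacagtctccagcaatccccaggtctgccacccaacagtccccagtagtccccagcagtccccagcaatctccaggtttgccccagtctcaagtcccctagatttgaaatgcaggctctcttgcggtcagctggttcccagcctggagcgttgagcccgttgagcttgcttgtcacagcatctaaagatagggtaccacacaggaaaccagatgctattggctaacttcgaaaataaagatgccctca
The RefSeq promoter table held 6 of the 9 members, and 5 of those 6 windows held 1 of the motifs or more. Of all 32851 promoter windows, read over 250 bases, 23.3% held GAGGAA, 19.7% GGAAGT and 36.7% either. The member windows had the same length except that of Lyz2, which was cut to 201 bases. Counted from the RefSeq start, Itgam held GAGGAA at -84 and, on the reverse strand, at -15, Cd68 at -225, and Aif1 on the reverse strand at -7. On the reverse strand Ms4a7 held GGAAGT at -15 and Lyz2 at -100. A match describes these letters only, not binding.

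Values within a gene are given below in CPM, read counts scaled to a common library total with TMM factors, the scale of the test. Log2 fold changes, their standard errors (SE) and adjusted p-values come from edgeR's quasi-likelihood test fitted to all 12 libraries, with Benjamini-Hochberg adjustment over the 18897 genes, and a gene was called at an adjusted p under 0.05.

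**Figure D1:**
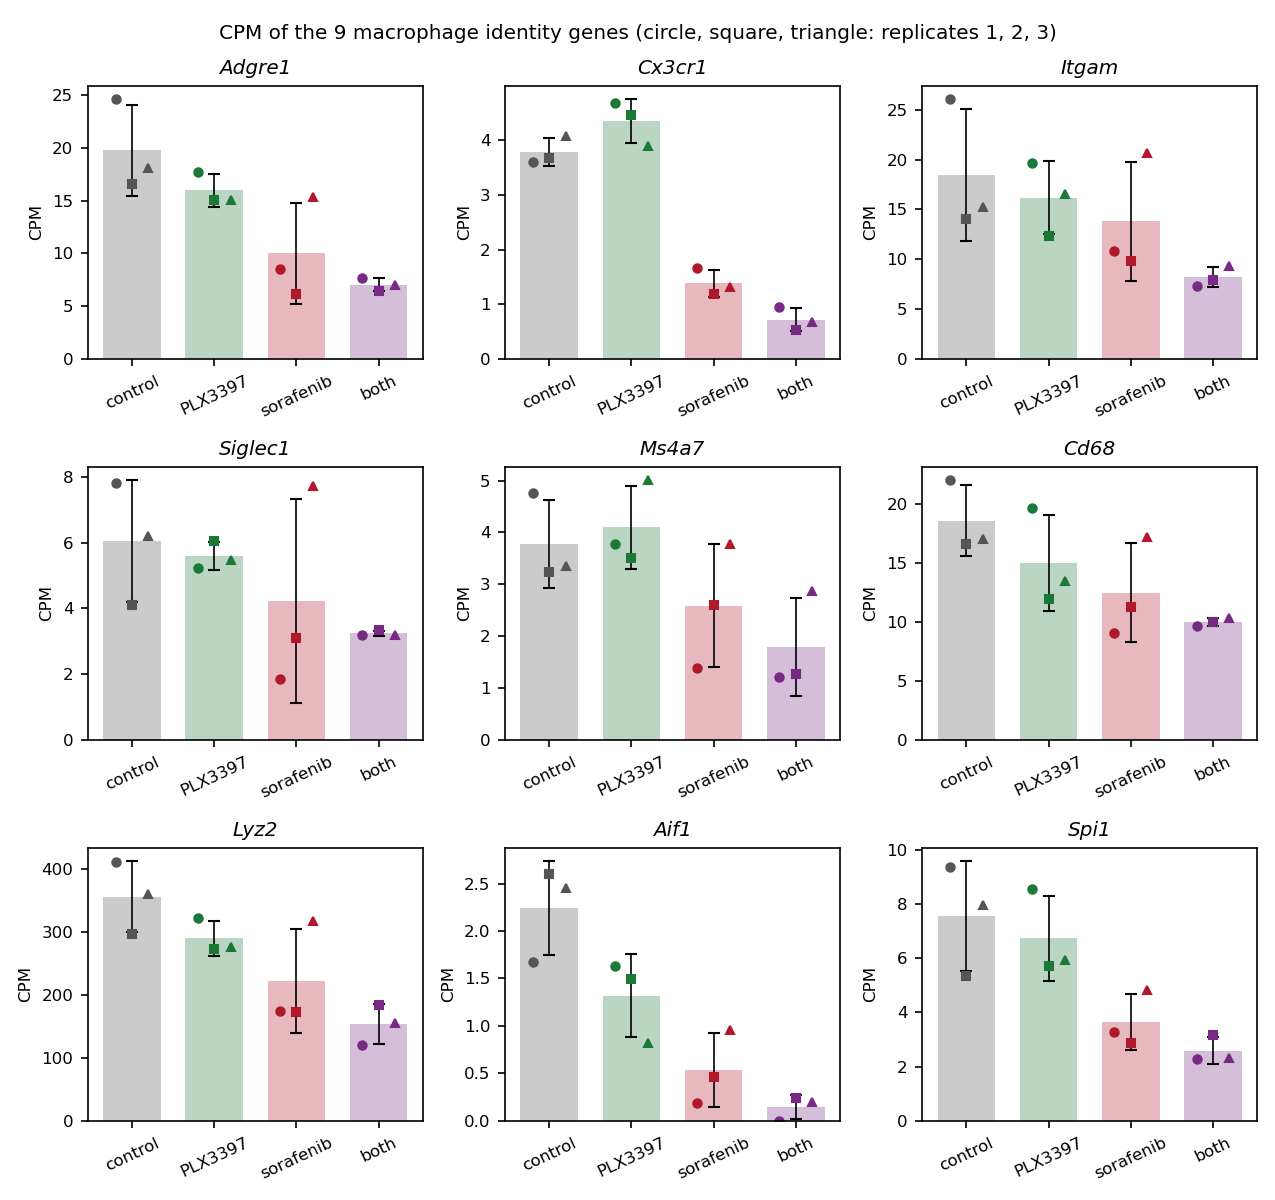
CPM (TMM-scaled, linear axis from 0) of the 9 members in each of the 12 libraries, 1 panel a gene; circle, square and triangle are replicates 1, 2 and 3, bars are group means of 3 libraries and whiskers are 1 SD. Cx3cr1 and Spi1 had no sorafenib-treated library, with or without PLX3397, as high as any library without sorafenib, and sorafenib replicate 3 lay above the other sorafenib libraries for every member except Cx3cr1.

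Spi1 (ENSMUSG00000002111, mm10 chr2:91082390-91114366, plus strand) encodes PU.1, an ETS-family transcription factor without which macrophages do not form. It had 9.35, 5.35 and 7.94 CPM in control hearts, 8.53, 5.72 and 5.93 CPM with PLX3397, 3.26, 2.86 and 4.81 CPM with sorafenib, and 2.29, 3.16 and 2.30 CPM with both agents. Every sorafenib library lay below every control, and the control and PLX3397 libraries overlapped. Spi1 fell to 48.3% of control with sorafenib (log2 fold change -1.05 ± 0.25 SE, edgeR adjusted p = 0.0435) and to 34.2% of control with both agents (-1.55 ± 0.26, adjusted p = 0.00204). Over both pairs of groups with and without sorafenib (6 libraries against 6), the average change was -1.22 ± 0.18 with an adjusted p of 0.000940. The sorafenib call against control alone was narrow: when 1 library at a time was left out it held in 4 of 12 fits, those without control replicate 2, PLX3397 replicate 1 or 3, or sorafenib replicate 3, while the average effect was called in all 12.

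Cx3cr1 (ENSMUSG00000052336, chr9:119901616-120068296, minus strand) encodes the receptor for fractalkine and marks patrolling monocytes and many tissue macrophages. It had 3.61, 3.68 and 4.08 CPM in controls, 4.68, 4.47 and 3.90 CPM with PLX3397, 1.65, 1.18 and 1.31 CPM with sorafenib, and 0.945, 0.535 and 0.678 CPM with both agents. The sorafenib libraries did not overlap the controls, and those with both agents lay below all sorafenib libraries. Cx3cr1 fell to 36.5% of control with sorafenib (-1.45 ± 0.23, edgeR adjusted p = 0.0106), to 19.0% of control with both agents (-2.39 ± 0.25, adjusted p = 0.000146), and the average change over sorafenib was -2.02 ± 0.17 (adjusted p = 1.88e-05). It was the only member for which sorafenib replicate 3 lay below the mean of the other sorafenib libraries, at 0.924 of it. The call with sorafenib alone was lost without control replicate 3, where the adjusted p was 0.0531. In the deposited coordinates the Cx3cr1 locus overlaps 6 other genes. Among them Xirp1, with a mean count of 8569, Gorasp1 and Csrnp1 lie on the same strand, so strand could not separate their reads. How reads in shared positions were assigned, and whether counting used strand, is not known, so the Cx3cr1 values carry that uncertainty.

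Adgre1 (ENSMUSG00000004730, chr17:57358691-57483527, plus strand) encodes the adhesion receptor recognised by the F4/80 antibody, the classical marker of mouse macrophages. It had 24.6, 16.6 and 18.1 CPM in controls, 17.8, 15.1 and 15.1 CPM with PLX3397, 8.49, 6.17 and 15.4 CPM with sorafenib, and 7.71, 6.42 and 7.0 CPM with both agents. Sorafenib replicate 3 lay just below the lowest control, and the other sorafenib libraries lay at 42.9% and 31.2% of the control mean. The change with sorafenib was -0.98 ± 0.27 (edgeR adjusted p = 0.0700), and without sorafenib replicate 3 it was -1.41 with an adjusted p of 0.00234. With both agents Adgre1 fell to 35.6% of control (-1.49 ± 0.27, adjusted p = 0.00525), and the average change over sorafenib was -1.08 ± 0.19 (adjusted p = 0.00446).

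Itgam (ENSMUSG00000030786, chr7:128062640-128118491, plus strand) encodes CD11b, the integrin alpha chain that pairs with CD18 in complement receptor 3. It had 26.1, 14.0 and 15.2 CPM in controls, 19.6, 12.3 and 16.5 CPM with PLX3397, 10.8, 9.86 and 20.7 CPM with sorafenib, and 7.32, 7.92 and 9.32 CPM with both agents. Sorafenib and control libraries overlapped through sorafenib replicate 3, whereas the libraries with both agents lay below all others. The change with sorafenib was -0.42 ± 0.31 (edgeR adjusted p = 0.476), and with both agents Itgam fell to 44.4% of control (-1.17 ± 0.32, adjusted p = 0.0328). That call was lost without control replicate 1 or 3 or any 1 of the libraries with both agents. The deposited Itgam locus is overlapped over 55809 bases by Gm49368 on the same strand, with a mean count of 7. How reads in shared positions were assigned is not known.

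Siglec1 (ENSMUSG00000027322, chr2:131069220-131086765, minus strand), the sialic acid receptor CD169, had 7.82, 4.11 and 6.21 CPM in controls, 5.22, 6.06 and 5.48 CPM with PLX3397, 1.84, 3.09 and 7.72 CPM with sorafenib, and 3.205, 3.33 and 3.18 CPM with both agents. Sorafenib replicate 3 stood at 3.14 times the mean of the other sorafenib libraries and near the top of the control range. The change with sorafenib was -0.52 ± 0.40 (edgeR adjusted p = 0.488) and with both agents -0.90 ± 0.40 (adjusted p = 0.150). Without sorafenib replicate 3, Siglec1 was called in both comparisons, with -1.27 for sorafenib against control and an adjusted p of 0.0317.

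Ms4a7 (ENSMUSG00000024672, chr19:11321039-11336144, minus strand), a tetraspanning membrane protein gene found mainly in macrophages, had 4.76, 3.23 and 3.36 CPM in controls, 3.78, 3.50 and 5.01 CPM with PLX3397, 1.39, 2.61 and 3.77 CPM with sorafenib, and 1.21, 1.28 and 2.88 CPM with both agents. Only the group with both agents lay wholly below the controls. On average over sorafenib Ms4a7 fell by 0.87 on the log2 scale (SE 0.26, edgeR adjusted p = 0.0456), a call that held in 2 of 12 fits that left out 1 library, those without sorafenib replicate 3 or without replicate 3 of the group with both agents.

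Cd68 (ENSMUSG00000018774, chr11:69664213-69666153, minus strand) encodes a heavily glycosylated protein of late endosomes and lysosomes, related to the LAMP proteins. It had 22.1, 16.6 and 17.1 CPM in controls, 19.7, 11.98 and 13.5 CPM with PLX3397, 9.06, 11.3 and 17.2 CPM with sorafenib, and 9.68, 10.04 and 10.3 CPM with both agents. Sorafenib replicate 3 lay within the control range and the other sorafenib libraries below it. Cd68 moved least of the members called: with both agents it fell to 53.9% of control (-0.89 ± 0.22, edgeR adjusted p = 0.0199) and the average change over sorafenib was -0.58 ± 0.16 (adjusted p = 0.0325). The first call was lost without control replicate 1 or 3 or replicate 1 or 2 of the group with both agents, and the second held in 4 of 12 fits, those without control replicate 2, PLX3397 replicate 2 or 3, or sorafenib replicate 3.

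Lyz2 (ENSMUSG00000069516, chr10:117277331-117282321, minus strand) encodes lysozyme M, the antibacterial enzyme of macrophages and neutrophils, whose locus drives Cre in many myeloid knockouts. It had 410, 297 and 359 CPM in controls, 321, 272 and 275 CPM with PLX3397, 174, 173 and 316 CPM with sorafenib, and 120, 184 and 156 CPM with both agents. Sorafenib replicates 1 and 2 were nearly equal and replicate 3 lay within the control range. Lyz2 fell to 43.2% of control with both agents (-1.21 ± 0.24, edgeR adjusted p = 0.00986) and the average change over sorafenib was -0.80 ± 0.17 (adjusted p = 0.0145). With sorafenib alone the change was -0.68 ± 0.24 (adjusted p = 0.139), and -1.02 with an adjusted p of 0.00921 without sorafenib replicate 3.

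Lyz1, the paralog of Lyz2 known for its expression in Paneth cells of the gut, is the nearest source of misassigned reads. The transcripts are 92.0% identical over 1317 aligned positions, and 15.4% of the 50-base words of Lyz2 also occur in Lyz1. The regions upstream of both genes are shown to compare the paralogs, as bases from RefSeq (GRCm38.p6) read along the minus strand, 201 bases upstream of the deposited Lyz2 gene (chr10:117282322-117282522) and the aligned 201 bases at Lyz1 (chr10:117292918-117293118), with the letters GGAAGT on either strand (ACTTCC on the reverse) in capitals.
Lyz2: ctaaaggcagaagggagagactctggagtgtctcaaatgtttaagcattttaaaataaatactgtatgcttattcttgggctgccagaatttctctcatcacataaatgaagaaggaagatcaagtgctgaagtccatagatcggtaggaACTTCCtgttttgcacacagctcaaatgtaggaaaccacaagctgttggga
Lyz1: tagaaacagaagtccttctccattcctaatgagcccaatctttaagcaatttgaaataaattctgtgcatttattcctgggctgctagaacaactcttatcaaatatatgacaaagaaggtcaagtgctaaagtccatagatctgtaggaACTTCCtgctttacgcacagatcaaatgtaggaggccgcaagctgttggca
The windows match at 74.4% of aligned positions, gaps included, and both hold 1 copy of ACTTCC. Lyz1 had 2.42, 2.08 and 5.11 CPM in controls, 1.94, 1.68 and 1.34 CPM with PLX3397, 3.22, 1.20 and 2.92 CPM with sorafenib, and 2.73, 5.52 and 2.15 CPM with both agents. Lyz1 lay far below Lyz2 in every library, and its control, sorafenib and both-agent groups overlapped, whereas the PLX3397 libraries lay below the controls (-0.95 ± 0.44, edgeR adjusted p = 0.406). Its average change over sorafenib was 0.34 ± 0.31 (edgeR adjusted p = 0.527).

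**Figure D2:**
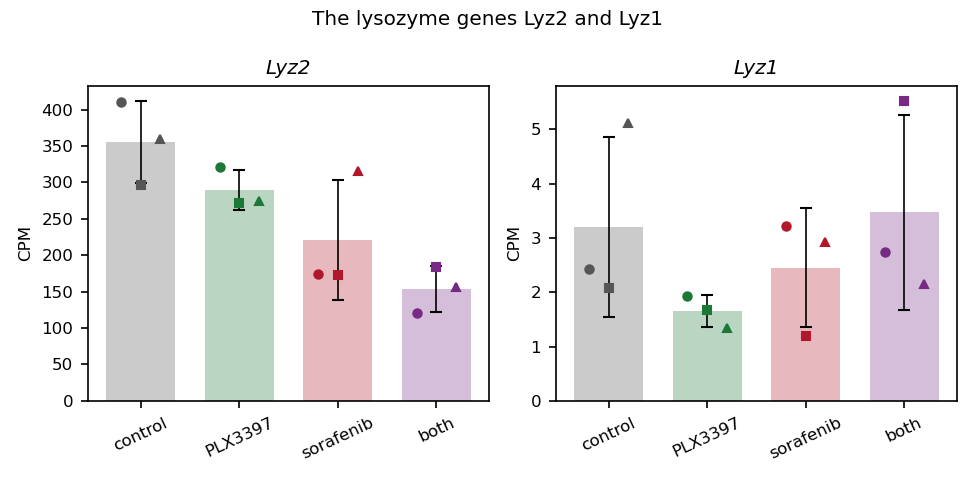
CPM (linear axes from 0, a separate scale for each gene) of Lyz2 and its paralog Lyz1 by group; circle, square and triangle are replicates 1, 2 and 3, bars are means of 3 libraries and whiskers 1 SD. Lyz2 ran from 120 to 410 CPM and had its lowest group mean with both agents, while Lyz1 ran from 1.20 to 5.52 CPM and had its lowest group mean with PLX3397.

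Aif1 (ENSMUSG00000024397, chr17:35170991-35173278, minus strand) encodes IBA1, a calcium- and actin-binding protein used to stain microglia and macrophages. Its estimated counts were low, at 117, 169 and 165 in controls, 109, 93 and 54 with PLX3397, 11, 27 and 60 in the sorafenib group, and 0, 14 and 12 where both agents were given. These correspond to 1.68 to 2.60 CPM in controls and 0.825 to 1.64 CPM with PLX3397. With sorafenib they were 0.184 to 0.959 CPM, and with both agents 0 to 0.242 CPM. A count of 0 allows up to 3 counts if 1 unit is 1 fragment, which is not known here, and the bound is too tight otherwise. Each group lay below the controls without overlap, and the libraries with both agents lay below those with PLX3397 alone. Aif1 had the largest fitted changes of the 9 members and also the largest errors, with -2.06 ± 0.67 for sorafenib (edgeR adjusted p = 0.106), -3.92 ± 0.76 with both agents (adjusted p = 0.00584) and -2.61 ± 0.50 on average over sorafenib (adjusted p = 0.00616). The deposited gene ends short of the longer GENCODE vM21 locus, which reaches position 35176068.

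Sorafenib against control asked what the kinase inhibitor did alone. Of the 9 members 2 fell, Cx3cr1 and Spi1, against a background of 1.14% of all genes called lower. The other 7 members had values from -0.42 for Itgam to -2.06 for Aif1, and the median of the 9 was -0.68 against -0.02 over all genes tested. All sorafenib libraries lay below all controls for 4 of the 9 members, Cx3cr1, Spi1, Adgre1 and Aif1, beside 13.7% of all genes. Csf1r, the receptor that PLX3397 inhibits and a macrophage gene itself, fell to 44.5% of control (-1.17 ± 0.17, edgeR adjusted p = 0.00734).

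**Figure D3:**
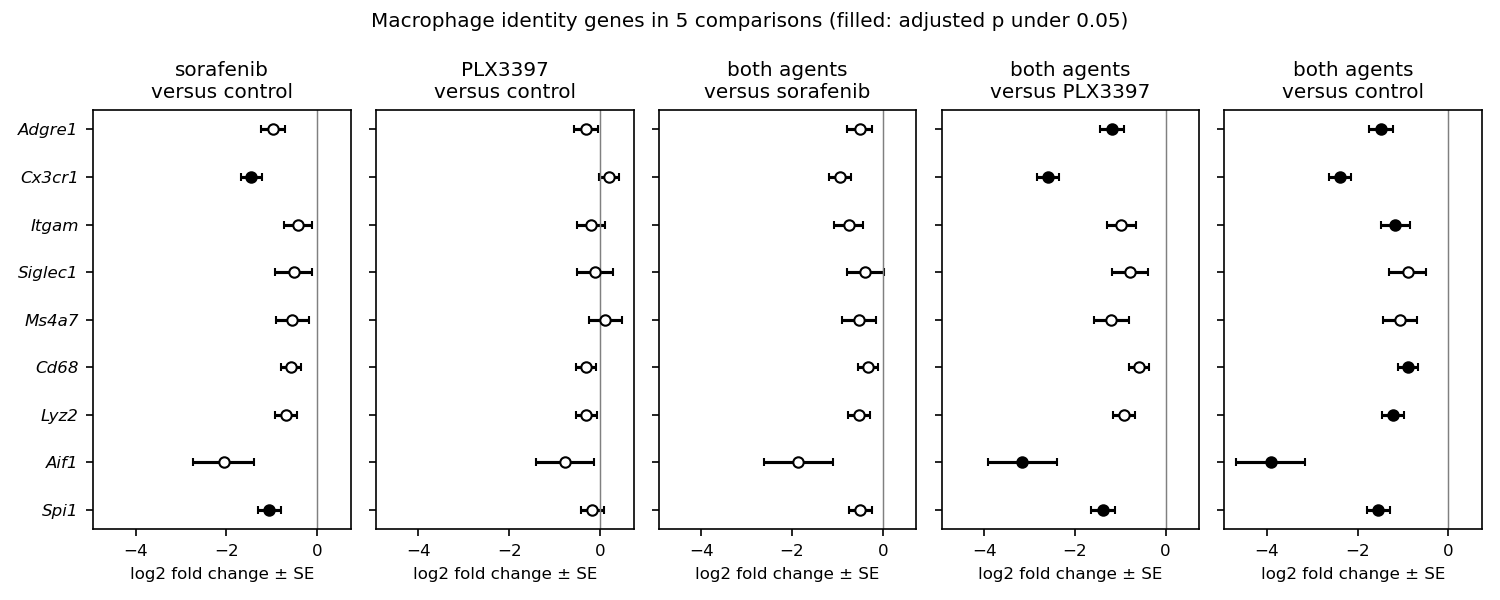
Log2 fold change of each member in 5 comparisons between groups (points), with whiskers of 1 SE; filled points were called by edgeR's quasi-likelihood test at an adjusted p under 0.05. Every member lay below 0 in the sorafenib comparison and in all 3 comparisons of the group with both agents, and the values of PLX3397 against control lay from -0.76 to 0.20.

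Sorafenib replicate 3 decided much of this count. Without it 6 of the 9 members fell, with Adgre1, Lyz2, Siglec1 and Cd68 joining Cx3cr1 and Spi1, and the median change was -1.27. The library was singled out by these same members, so that count is no separate test. Against the mean of sorafenib replicates 1 and 2, replicate 3 stood at 2.97 times for Aif1, 2.10 times for Adgre1, 1.99 times for Itgam, 1.89 times for Ms4a7, 1.82 times for Lyz2, 1.69 times for Cd68 and 1.57 times for Spi1. In replicate 3, 5 of the 9 members were within the control range, namely Itgam, Siglec1, Ms4a7, Cd68 and Lyz2. Beside this, the 11 neutrophil markers summed to 6.46 CPM in replicate 3 against 2.36 and 2.38 CPM in the others and 4.79 to 6.49 CPM in controls, with the defining marker Ly6g at 0 in 10 of the 12 libraries. The 8 monocyte markers summed to 111 CPM in replicate 3 against 77.1 and 123 CPM in the others and 100.1 to 119 CPM in controls. As a mean log2 difference from the control mean, the scale used for the members, the monocyte list stood at 0.12 in replicate 3 against -1.20 and -1.001 in replicates 1 and 2, and the neutrophil list at 0.50 against -0.77 and -0.52. Controls ranged from -0.28 to 0.39 for the monocyte and from -0.52 to 0.70 for the neutrophil list. The monocyte sum follows the most highly counted genes of its list, whereas Plac8 and Treml4 reached at most 122 and 33 counts in any library. Sorafenib replicate 1 had the highest monocyte sum of its group but the lowest mean log2 difference, so the sum alone does not measure monocyte content. Across the other groups the neutrophil sum ran from 4.48 to 8.90 CPM with PLX3397 and from 7.14 to 7.45 CPM with both agents, and the monocyte sum from 64.5 to 120 CPM and from 70.3 to 76.6 CPM. The part of these cells in the members' values was not tested. Leaving out other libraries lowered the count to 1 (control replicate 1, PLX3397 replicate 2, sorafenib replicate 1 or 2, or replicate 2 or 3 of the group with both agents) or 0 (control replicate 3).

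**Figure D4:**
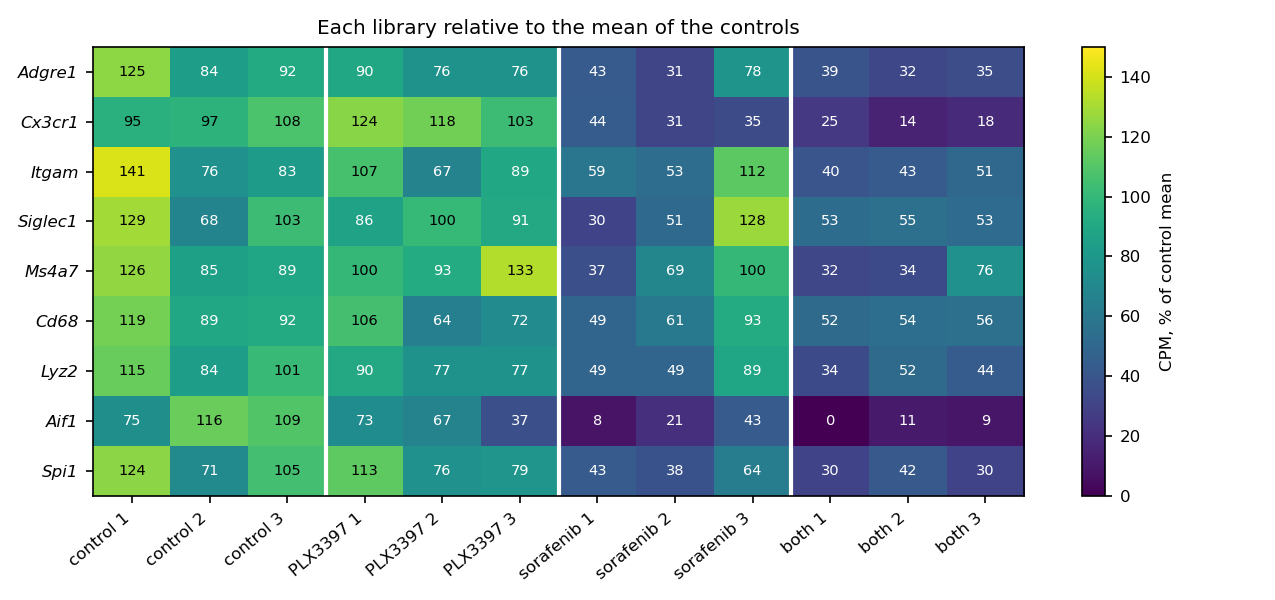
Level of each member in every library as a percent of its control mean, computed from TMM-scaled CPM, given by colour and by the number in each cell, with genes in rows and libraries in columns. Sorafenib replicate 3 reached 128% of the control mean for Siglec1 and 112% for Itgam but 34.6% for Cx3cr1, and the libraries with both agents lay from 0% to 76.2%.

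PLX3397 against control gave no call. With edgeR 0 of the 9 members passed, beside 0% of all genes, and 0 of the 9 had an unadjusted p under 0.05. Limma called 0 members as well, and DESeq2 gave an adjusted p for only 1 of the 9, Lyz2 (0.505), so it says nothing on the other 8. Over all genes an unadjusted p under 0.05 was reached by 2325 and DESeq2 called 99. The members ran from -0.76 for Aif1 to 0.20 for Cx3cr1 with a median of -0.19. The interval of ± 1.96 SE was -0.24 to 0.64 for Cx3cr1, -0.76 to 0.17 for Lyz2, -0.82 to 0.21 for Adgre1 and -2.01 to 0.49 for Aif1. Only Aif1 had PLX3397 libraries wholly below the controls, beside 7.31% of all genes. Csf1r itself had 59.1, 48.3 and 53.7 CPM in controls and 52.4, 38.4 and 41.8 CPM with PLX3397, a change of -0.28 ± 0.16 (edgeR adjusted p = 0.496) in overlapping groups.

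Adding PLX3397 to sorafenib was likewise without a call. Against sorafenib alone, edgeR called 0 of the 9 members with both agents, beside 0% of all genes, and 3 members had an unadjusted p under 0.05: Cx3cr1 (-0.94 ± 0.24, adjusted p = 0.435), Aif1 (-1.86 ± 0.75, adjusted p = 0.722) and Itgam (-0.75 ± 0.32, adjusted p = 0.745). DESeq2 and limma called 0 members. All 9 members had values below 0, with a median of -0.53, and for Cx3cr1 and Itgam the libraries with both agents lay wholly below those with sorafenib, beside 6.21% of all genes. Without sorafenib replicate 3 the median was -0.18. Cx3cr1 then stood at -0.97, Aif1 at -1.13, Itgam at -0.34, Adgre1 at -0.05, Cd68 at -0.02, Lyz2 at -0.18, Ms4a7 at -0.16, Spi1 at -0.24 and Siglec1 at 0.40. Averaged over both settings of sorafenib, the PLX3397 effect was called for 0 of the 9 members by edgeR, DESeq2 and limma, beside 0% of all genes, with 3 members at an unadjusted p under 0.05 and values from -1.31 for Aif1 to -0.21 for Ms4a7. Without sorafenib replicate 3 these ran from -0.95 for Aif1 to 0.14 for Siglec1, with Ms4a7 at -0.016.

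With both agents most members were lower than in hearts without sorafenib. Against control, 7 of the 9 members fell, all except Siglec1 (-0.90 ± 0.40, edgeR adjusted p = 0.150) and Ms4a7 (-1.08 ± 0.37, adjusted p = 0.0645), beside 8.14% of all genes called lower. The median was -1.21, and all 9 members had no library as high as any control, beside 19% of all genes. The count ran from 5 to 8 when 1 library at a time was left out. Against PLX3397 alone 4 of the 9 fell, beside 2.23% of all genes called lower: Cx3cr1 (-2.59 ± 0.25, adjusted p = 0.000176), Spi1 (-1.38 ± 0.26, adjusted p = 0.0108), Adgre1 (-1.18 ± 0.27, adjusted p = 0.0356) and Aif1 (-3.15 ± 0.75, adjusted p = 0.0386). All 9 members again did not overlap, beside 11.5% of all genes. These 4 calls differed in firmness: Cx3cr1 held in 12 and Spi1 in 11 of 12 fits that left out 1 library (lost without replicate 1 of the group with both agents), Adgre1 in 5 (those without control replicate 1 or 2 or any sorafenib library) and Aif1 in 3 (those without any sorafenib library), and the count ran from 1 to 6. The comparisons above share libraries, so their values are set side by side and are not independent of each other.

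The average sorafenib effect, over libraries with and without PLX3397, called 7 of the 9 members lower, beside 6.32% of all genes: Cx3cr1, Spi1, Adgre1, Aif1, Lyz2, Cd68 and Ms4a7. Itgam (-0.70 ± 0.22, edgeR adjusted p = 0.0675) and Siglec1 (-0.65 ± 0.28, adjusted p = 0.159) were not called. The median was -0.87 against -0.01 over all genes. The 6 libraries with sorafenib lay below the 6 without it for Cx3cr1 and Spi1, beside 2.42% of all genes. All 9 members were called without sorafenib replicate 3, which their own values had singled out, and the lowest count without 1 library was 5. The interaction, the difference of the sorafenib effect with and without PLX3397, called 0 of the 9 with edgeR, DESeq2 and limma, beside 0% of all genes. Only Cx3cr1 had an unadjusted p under 0.05, with -1.14 ± 0.33 and an adjusted p of 0.822. Without sorafenib replicate 3 Cx3cr1 stood at -1.17, and Adgre1, Cd68, Lyz2 and Siglec1 turned to 0.25, 0.28, 0.12 and 0.50.

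For each member the 3 genes with the most similar pattern were found by the root mean square difference of log2 CPM, centred on each gene's mean, over the 12 libraries, among 9891 genes with at least 1 FPKM. Lyz2 had the closest neighbours, Unc93b1 at 0.112, Plek at 0.122 and Ncf1 at 0.149, genes of endosomal receptor transport, of haematopoietic cell signalling and of the phagocyte NADPH oxidase. Cd68 lay nearest to Capg at 0.136, an actin-capping protein gene, and Adgre1 to Pld4 at 0.150 and Rgs10 at 0.157. Itgam lay nearest to Ctss at 0.166, a lysosomal protease gene, which was also second for Siglec1 at 0.263 after the chemokine gene Ccl6 at 0.236. Spi1 lay nearest to Rgs10 at 0.188, followed by the signalling adaptor gene Tyrobp at 0.203 and Csf1r at 0.207. Ms4a7 and Cx3cr1 had looser neighbours, F13a1 at 0.308 and Fcrls at 0.356, and the nearest to Aif1 was Folr2 at 0.679. The 3 nearest also held Mthfd2 for Siglec1 at 0.281 and Arntl for Aif1 at 0.941. These distances are not scaled to how much each member itself moved. The members' own root mean square difference from their mean was 0.419 for Cd68, 0.532 for Lyz2, 0.676 for Ms4a7, 1.08 for Cx3cr1 and 1.80 for Aif1. Closer and looser thus partly follow the size of each member's changes. Aif1 had 0 counts in replicate 1 of the group with both agents. Its log2 CPM of -4.97 there was set by the small count added before taking logs. The 1.80 of Aif1 and its distances to other genes rest in part on that library. Among the members themselves, Itgam and Lyz2 were each other's nearest at 0.225, as were Adgre1 and Spi1 at 0.236, and Cd68 lay nearest to Lyz2 at 0.229. All 12 points share the same libraries, so these values describe likeness only.

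Other genes of the macrophage programme were read from lists by their average sorafenib effect. Of 17 macrophage transcription factor genes 6 fell and 2 rose, with a median of -0.44, where 6.32% of all genes were called lower and 5.62% higher. Among those that fell were Irf5 (-1.25, edgeR adjusted p = 0.000435) and Irf8 (-0.90, adjusted p = 0.00138), interferon regulatory factors, Ikzf1 (-0.79), Cebpa (-0.61) and Maf (-0.44). Bhlhe41 (0.85, edgeR adjusted p = 0.000271) and Mitf (0.36, edgeR adjusted p = 0.00418) rose. Of 12 myeloid surface and growth factor receptor genes linked to PU.1, 6 fell and 0 rose, with a median of -0.62: Cd14 (-1.46), the endotoxin co-receptor, Csf1r (-1.39), the antibody receptors Fcgr1 (-1.37) and Fcgr3 (-1.32), the mannose receptor Mrc1 (-0.99) and the cytokine receptor chain Csf2rb (-0.79). Of 14 pan-leukocyte genes 13 fell, with a median of -0.98, from Cd53 at -0.77 to Cyth4 at -1.52, including Ptprc (CD45) at -0.96, while Vav1 was at -0.90 with an adjusted p of 0.0575. Of 12 resident macrophage markers 10 fell, with a median of -1.39, led by Timd4 (-3.15) and Folr2 (-2.97), and Cbr2 and Gas6 were not called. Leaving out 1 library at a time gave 6 to 7 transcription factors, 12 to 14 pan-leukocyte genes and 10 to 11 resident macrophage markers called lower.

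**Figure D5:**
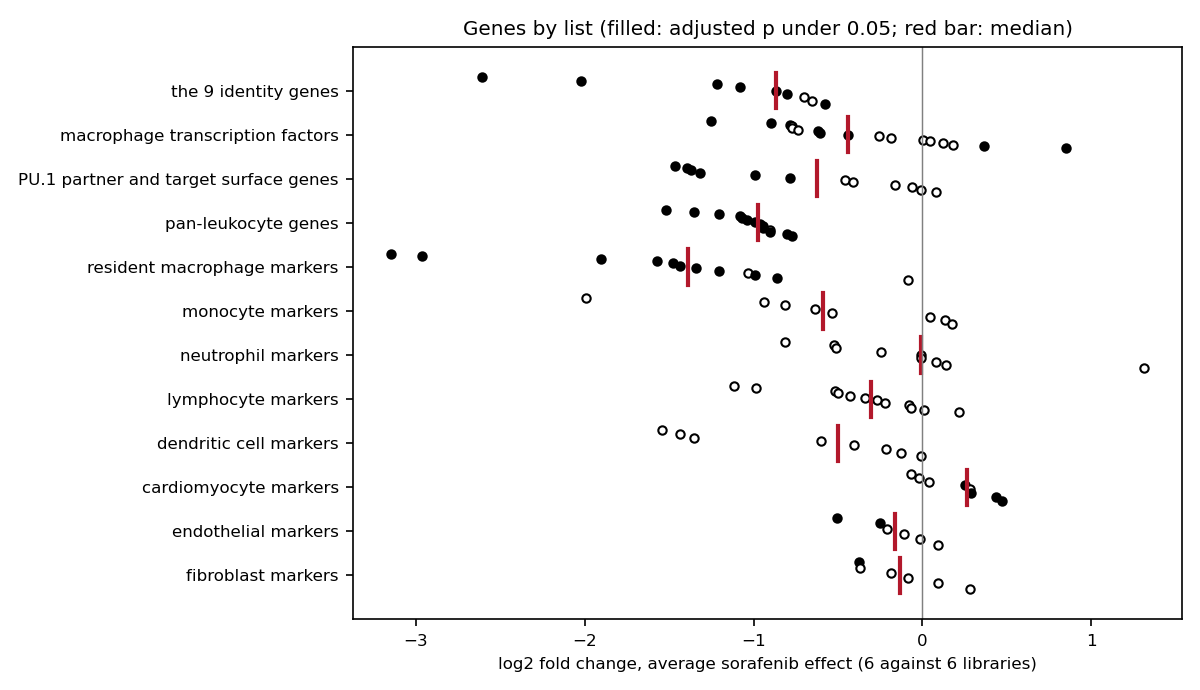
Average sorafenib effect (log2 fold change) of the genes of each list; points are genes (spread vertically for legibility), filled where called by edgeR's quasi-likelihood test at an adjusted p under 0.05, and the bar is the list's median. Resident macrophage markers had a median of -1.39 and pan-leukocyte genes of -0.98, against -0.59 for monocyte and -0.01 for neutrophil markers.

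Ligands and relatives of the members moved unevenly by their average sorafenib effect, where 6.32% of all genes were called lower and 5.62% higher. Cx3cl1, the fractalkine ligand of CX3CR1, fell by 0.65 on the log2 scale (edgeR adjusted p = 0.0261), and Spn, the CD43 sialoprotein that SIGLEC1 can bind, fell by 1.29 (adjusted p = 0.0267). Of the 12 fits that left out 1 library, the Cx3cl1 call held in 7 (lost without control replicate 3, sorafenib replicate 1 or 3, or replicate 1 or 3 of the group with both agents) and the Spn call in 6 (lost without control replicate 2 or 3, PLX3397 replicate 1, sorafenib replicate 1 or 3, or replicate 1 of the group with both agents). Itgb2, the CD18 partner of Itgam, was at -0.41 with an adjusted p of 0.147, and Icam1, a ligand of the pair, at -0.10. The CSF1R ligands stood at 0.03 for Csf1 and -0.37 for Il34 (adjusted p = 0.0853). Among relatives of Cd68, Lamp2 rose by 0.25 (adjusted p = 0.0196) and Lamp1 was at -0.04. Adgre4, a close relative of Adgre1, fell by 2.01 (adjusted p = 0.0221), a call lost without PLX3397 replicate 1, and Adgre5 was at -0.04. In the MS4A family Ms4a6b fell by 1.30 and Ms4a6c by 1.22 of 10 tested, in the Siglec family Cd33 by 1.49 and Siglece by 1.52 of 6 tested, and among beta-2 integrin alpha chains Itgal by 0.71. The Itgal call held in 3 of the 12 fits, those without control replicate 1, PLX3397 replicate 3 or sorafenib replicate 3.

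Markers of other cell types were read in the same way. Over all genes edgeR called 6.32% lower and 5.62% higher by the average sorafenib effect, so 0 calls in lists this short lie near that share. It called 0 of 8 monocyte markers (median -0.59) and 0 of 9 tested neutrophil markers (median -0.01). Likewise it called 0 of 8 dendritic cell markers (median -0.50) and 0 of 12 lymphocyte markers (median -0.30). Unadjusted p-values under 0.05 were reached by 1, 1, 0 and 1 of them, and DESeq2, which gave an adjusted p for 8, 7, 8 and 11 of them, called 1 monocyte marker and 0 of the other 3 lists, while limma called 1 monocyte and 1 neutrophil marker. Without sorafenib replicate 3 edgeR called 1 monocyte marker, Treml4, and 2 neutrophil markers, Mmp9 and S100a9, and without replicate 2 of the group with both agents 1 dendritic cell marker, Cd209a. These lists are thinly counted, with the dendritic cell sum between 11.6 and 17.6 CPM and the lymphocyte sum between 2.71 and 8.11 CPM over the 12 libraries. Of 8 cardiomyocyte markers 4 rose and 0 fell, with Myh6 at 0.47 (3 to 5 rose without 1 library), and their sum ran from 38568 to 43518 CPM in controls, 39646 to 42621 CPM with PLX3397, 44008 to 47784 CPM with sorafenib and 45511 to 53621 CPM with both agents. Of 6 endothelial markers Kdr (-0.51) and Emcn (-0.25) fell, and of 6 fibroblast markers Pdgfrb (-0.37). The part of these shifts in the members' values was not tested.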

How the data were processed

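The deposited table held, for each of 12 libraries, an expected count and an FPKM value per gene as the authors made them, per the file headers. The submitters' processing notes name the mm10 build, DESeq2 and edgeR; versions, aligner and counting program are not stated in the sources used here. The deposited expected counts were whole numbers, with 12143 values of 4 against 5303 of 3 and 3364 of 5, an excess at multiples of 4, so a unit may not be 1 fragment. The authors scaled FPKM for length and library size, per the file headers. The table held 0 other columns of per-sample values. Per the labels' protocols the libraries were poly(A)-selected and dUTP-marked.

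Counts were tested in R 4.3.3 with edgeR 4.0.16 (filterByExpr, minimum count 10 and minimum total 15, TMM scaling, robust quasi-likelihood fit with 1 mean per group, two-sided tests of 8 contrasts). The alternatives, with limma 3.58.1 on log2 of FPKM plus 0.5 or 0.1 and DESeq2 1.42.0 among them, are reported under the sensitivity of the results. Groups came from the sample titles. Total counts per library ran from 61626404 to 64537365, and the test's SE covers counting error and the spread between libraries. The code was tested on simulated data. The members, the gene lists and the tests were chosen with earlier results of these data known. Named beyond the members were some of the 3 nearest genes of each, Csf1r and Lyz1. List genes were named where called in a contrast or with the smallest p-values. A few list genes that were not called were named after their values were seen. Promoter windows came from RefSeq and Lyz transcripts from GENCODE, aligned with Biopython 1.88.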

Additional observations from a re-analysis of the deposited data

How the results depend on the processing

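Among 9 members, the number called for sorafenib against control was 2. It was 1 with a replicate block or with only the groups compared, and 4 with counts divided by 4, with the DESeq2 Wald test, and with limma on log2 FPKM plus 0.5 or plus 0.1. It ran from 0 to 6 when 1 library was left out. For both agents against PLX3397 it was 4, but 2 with no filter, 7 with the DESeq2 Wald test, and 1 to 6 when 1 library was left out. For both agents against control it was 7, and 5 to 8 when 1 library was left out. Across 10 other settings Ms4a7 became called in 5 and Siglec1 in 1, and Itgam was lost in 1. For the average sorafenib effect the number was 7, and 5 to 9 when 1 library was left out. Across 9 other settings Itgam became called in 4 and Ms4a7 was lost in 1. The number was 0 in every setting for the PLX3397 effects, for both agents against sorafenib and for the interaction. For PLX3397 against control DESeq2 gave an adjusted p for only 1 member. Genes called over the whole table for sorafenib against control numbered 500 (284 higher, 216 lower), but 221 with the replicate block, 772 with the stricter filter, 912 with counts divided by 4, 1701 with DESeq2 and 872 with limma plus 0.5 (89 higher, 783 lower), where the median of all genes moved by up to -0.12; they ran from 27 to 1422 without 1 library. For both agents against PLX3397 there were 611, with 1192 by DESeq2 and 177 to 642 without 1 library. For both agents against control there were 3046 (1507 higher, 1539 lower; 1261 to 3595 without 1 library) and for the average sorafenib effect 2257 (1062 higher, 1195 lower; 1394 to 2583), where limma plus 0.5 gave 523 higher and 2869 lower, and 324 higher and 2589 lower. PLX3397 against control gave 0, and 578 without PLX3397 replicate 1. The cause of these shifts was not tested.

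The replicate numbers showed no pairing by correlation. Deviations of same-numbered libraries correlated from -0.102 to 0.0641 over 18 pairs of libraries, and those of differently numbered libraries from -0.142 to 0.141 over 36. With 3 libraries a group, these correlations cannot exclude that same-numbered libraries shared a batch. Directions turned only for uncalled values. The interaction of Aif1 was 0.11 with limma plus 0.5, and that of Cd68 0.00095 with the replicate block and 0.0733 and 0.0734 with limma plus 0.5 and plus 0.1. Without 1 library the interaction ran from -0.46 to 0.25 for Adgre1, -0.20 to 0.28 for Cd68, -0.39 to 0.12 for Lyz2 and -0.63 to 0.50 for Siglec1. PLX3397 against control ran from -0.35 to 0.15 for Itgam, -0.053 to 0.33 for Ms4a7, -0.33 to 0.13 for Siglec1 and -0.36 to 0.027 for Spi1. Siglec1 ran from -0.43 to 0.14 for the average PLX3397 effect and from -0.74 to 0.40 for both agents against sorafenib. Fits of only the groups compared were not made for the averages and the interaction, which use all groups. Depth limits Aif1 most, with 60 counts or fewer in each library that received sorafenib.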
